A study of Mus musculus with 2 samples.

Results

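Lymphoid priming is the low-level expression of lymphoid genes in blood progenitors that have not yet committed to the lymphoid branch. Here 9 genes used to read it (Flt3, Dntt, Satb1, Il7r, Notch1, Ltb, Itgb7, Mn1 and Cd52), were followed out of the 32285 genes counted, together with the antibody tags for 2 of their products, CD135 (FLT3) and CD127 (IL-7 receptor alpha), out of 15 tags. The question was how often these genes were detected, at what level per expressing cell and how often together, in cells with no transcript of the B-cell receptor component gene Cd79a.

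The cells were mouse bone marrow cells sorted for the stem and progenitor receptor Kit and for CD45.2, an allelic form of CD45 used to tell donor from host cells, taken 10 weeks after transplantation; the labels do not say which of the 2 it marked here. CITE-seq, a droplet method, counted messenger RNA and antibody tags in the same cells. There was 1 control library and 1 library labelled Utx deleted, called below the Utx-labelled library; UTX, encoded by Kdm6a, is a histone H3 lysine-27 demethylase. The labels give neither the strain, the Cre or other means of deletion, the age of the animals nor how many animals were pooled, and both groups share the transplantation and the sort. Each library carried 2 hashtag antibodies whose meaning is not given in the sources used here, so each group counts as 1 sample. With 1 sample per group there is no test of the conditions, and the differences below are between 2 libraries. Brackets hold 95% intervals, exact Poisson for counts and their ratios and Clopper-Pearson for shares of cells, which cover counting error only.

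Progenitors that keep lymphoid potential carry FLT3, a receptor tyrosine kinase for FLT3 ligand. As they proceed toward the lymphoid branch they begin to transcribe Dntt, which encodes the polymerase that adds untemplated nucleotides to antigen receptor genes, and then Il7r, the receptor chain through which IL-7 supports lymphoid progenitors. Notch1 is the receptor that directs thymic progenitors to the T-cell fate, Satb1 encodes a chromatin organiser active in lymphoid cells, and Mn1 encodes a transcriptional coregulator of progenitors. Ltb encodes lymphotoxin beta, Itgb7 the integrin beta-7 subunit used in homing to the gut, and Cd52 a small anchored glycoprotein of leukocytes.

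The 9 genes lie on 6 chromosomes (GRCm38, GENCODE M21): Flt3 on chromosome 5 from 147330741 to 147400489, Mn1 on the same chromosome from 111417362 to 111457033, Dntt on 19 from 41029275 to 41059525, Satb1 on 17 from 51736187 to 51833290 and Ltb on 17 from 35194439 to 35196320. Il7r lies on 15 from 9505788 to 9530176, Itgb7 on 15 from 102215995 to 102231944, Notch1 on 2 from 26457903 to 26516663 and Cd52 on 4 from 134082448 to 134095082. RefSeq promoter windows (GRCm38.p6, 250 bases before to 50 after a start) were at hand for 7 of the 9. Those of the 5 genes called at least 2-fold lower in the stem-cell-like class are shown, so that their windows can be compared: Flt3 (chr5:147400440-147400739, minus strand), Dntt (chr19:41029025-41029324, plus strand), Itgb7 (chr15:102231886-102232185, minus strand), Notch1 (chr2:26503773-26504072, minus strand) and Ltb (chr17:35194257-35194556, plus strand). Capitals mark any match, on either strand, to the motifs searched.
Flt3: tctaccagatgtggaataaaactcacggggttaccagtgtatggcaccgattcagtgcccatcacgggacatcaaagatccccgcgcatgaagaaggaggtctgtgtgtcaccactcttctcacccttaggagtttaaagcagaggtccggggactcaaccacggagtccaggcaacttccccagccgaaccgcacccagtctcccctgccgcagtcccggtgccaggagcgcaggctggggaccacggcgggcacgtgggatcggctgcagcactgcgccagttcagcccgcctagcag
Dntt: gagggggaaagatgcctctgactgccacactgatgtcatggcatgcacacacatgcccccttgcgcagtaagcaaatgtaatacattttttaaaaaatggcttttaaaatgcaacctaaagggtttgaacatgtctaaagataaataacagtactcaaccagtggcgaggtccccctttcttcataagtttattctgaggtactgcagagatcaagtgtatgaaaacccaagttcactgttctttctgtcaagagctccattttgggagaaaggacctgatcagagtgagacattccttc
Itgb7: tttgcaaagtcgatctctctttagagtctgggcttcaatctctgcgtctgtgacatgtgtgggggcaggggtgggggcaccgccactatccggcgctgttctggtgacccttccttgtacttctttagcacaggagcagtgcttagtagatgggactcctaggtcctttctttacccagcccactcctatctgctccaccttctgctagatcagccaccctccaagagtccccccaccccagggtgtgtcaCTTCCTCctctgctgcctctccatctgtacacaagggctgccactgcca
Ltb: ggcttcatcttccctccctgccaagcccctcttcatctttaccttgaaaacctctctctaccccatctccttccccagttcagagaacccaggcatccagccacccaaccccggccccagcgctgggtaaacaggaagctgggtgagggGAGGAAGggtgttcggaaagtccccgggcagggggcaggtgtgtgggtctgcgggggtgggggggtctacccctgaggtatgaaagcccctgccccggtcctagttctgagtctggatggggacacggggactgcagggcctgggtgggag
Notch1: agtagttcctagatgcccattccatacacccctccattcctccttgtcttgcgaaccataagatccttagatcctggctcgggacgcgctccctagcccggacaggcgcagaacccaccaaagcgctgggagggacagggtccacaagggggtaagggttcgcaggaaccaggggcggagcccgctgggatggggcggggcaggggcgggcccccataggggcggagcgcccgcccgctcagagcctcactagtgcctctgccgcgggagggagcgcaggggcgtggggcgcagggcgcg
The motifs were CAGCTG (an E-box), TGGGAA (a core shared by RBPJ and Ikaros sites), GAGGAAG (a PU.1 core) and TGTGGT (a RUNX core), which can share letters such as GGAA; no window shown held more than 1 match. GAGGAAG was found in the first window of Itgb7, Ltb and Satb1, beside 13.6% of 32851 windows of the same length genome-wide. TGTGGT was found in the first window of Il7r, beside 16.8% of all windows. No match to any of the 4 was present in the windows of Flt3, Dntt and Notch1 (the last at a start inside the gene), and CAGCTG occurs in 16.3% and TGGGAA in 25.6% of all windows. These are matches of letters only.

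After filtering, 7011 control cells and 7206 cells of the Utx-labelled library remained, of which 6878 and 7133 had no Cd79a UMI (unique molecular identifier, counted as 1 transcript), with median depths of 12324 and 11826 UMIs. Both libraries share 13 of the kept cell barcodes. The class called megakaryocyte-progenitor-like, cluster 14, was mixed: Pf4 and the erythroid gene Car1 led it together, separate clusters were led by each at resolution 2, and at resolution 0.5 the cluster led by both stayed unnamed. Maturing-neutrophil-like cells made up 73.7% and 74.96% of them. The 2 libraries occupied different clusters of that class, mostly clusters 1, 3, 5, 6 and 12 in the control and 0, 2, 4, 8 and 11 in the other. Cluster 9 of 23 had Mecom, Adgrl4, Hlf and Flt3 among its 10 leading genes, with Prg2 also there. All 11 stem-cell markers had a UMI in both libraries, at 3330 and 3175 CPM in sum (CPM scales UMIs to the total of the cells summed). Of that, Angpt1 alone gave 1466 and 1562 CPM. A UMI of each marker does not set the cluster apart, since all 6 neutrophil-progenitor markers had one too, at 6538 and 10010 CPM. The name rests on the marker score, a mean z-score across clusters, of 2.71 for HSC/MPP (haematopoietic stem cell or multipotent progenitor) and 0.83 for neutrophil progenitor, the next class. The cluster is called HSC/MPP-like, and the clustering did not use the 9 genes. It held 517 control cells (7.52%, 6.90 to 8.17) and 205 cells of the Utx-labelled library (2.87%, 2.50 to 3.29), at median depths of 26009 and 28118 UMIs. Kdm6a transcripts stood at 162.4 and 163.1 CPM in it; 3-prime counts do not show the loss of an internal exon, so this does not check the label.

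Over all cells without Cd79a, 4 of the 9 genes, Flt3, Dntt, Itgb7 and Mn1, were at least 2-fold lower in the Utx-labelled library and none was 2-fold higher. Among all 13470 genes with at least 100 UMIs, 5.12% were that much lower and 1.33% that much higher. The median log2 ratio was -0.89 over the 9 genes and -0.11 over all genes tested. Within the HSC/MPP-like class, 7 of the 9 reached 100 UMIs and 5 of those, Flt3, Dntt, Notch1, Ltb and Itgb7, were at least 2-fold lower, beside 2.68% of 10200 genes; none was 2-fold higher, beside 1.53%. Il7r and Mn1 did not reach that count, and their log2 ratios were -1.42 and -2.13. The median log2 ratio was -2.13 over all 9 and -0.03 over all genes tested in the class. By share of cells with a UMI, 5 of the 8 genes seen in at least 20 cells of the class were at least 2-fold lower (Flt3, Dntt, Ltb, Itgb7 and Mn1), beside 3.5% of 12498 genes.

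Flt3 was detected in 341 of 517 control HSC/MPP-like cells (66.0%, 61.7 to 70.0) and in 40 of 205 cells of the Utx-labelled library (19.5%, 14.3 to 25.6). Expressing cells held a mean of 5.57 Flt3 UMIs in the control and 3.58 in the other library. The control class summed to 137.6 CPM (131.5 to 143.9) and the other to 24.3 CPM (20.5 to 28.6), a log2 ratio of -2.49 (-2.76 to -2.26). The share of positive cells was 3.38-fold lower, and the log2 ratio of UMIs per positive cell was -0.64. When every cell was thinned to 2000 UMIs, 19.7% and 3.41% of cells remained positive, and the log2 ratio of UMIs per positive cell turned to 0.11, on 7 positive cells in the Utx-labelled library (over all cells from -0.48 to 0.30). A positive cell holds at least 1 UMI by definition, which compresses this ratio when counts are so low. Thinning therefore cannot decide whether the level per expressing cell was lower. Maturing-neutrophil-like cells, which should lack FLT3, were positive in 0.394% and 0.0935% at median depths of 9771 and 9752 UMIs. Neutrophil-progenitor-like cells, at 30402 and 25820 UMIs, were positive in 6.05% and 2.46%.

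Each bin of Flt3 counts above 0 held a smaller share of the Utx-labelled class. Cells with 10 or more Flt3 UMIs made up 12.6% of the control class (65 cells) and 1.95% of the other (4 cells). Cells with 5 to 9 made up 13.9% and 2.44%, and cells with exactly 1 made up 14.1% and 7.80%.

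**Figure D1:**
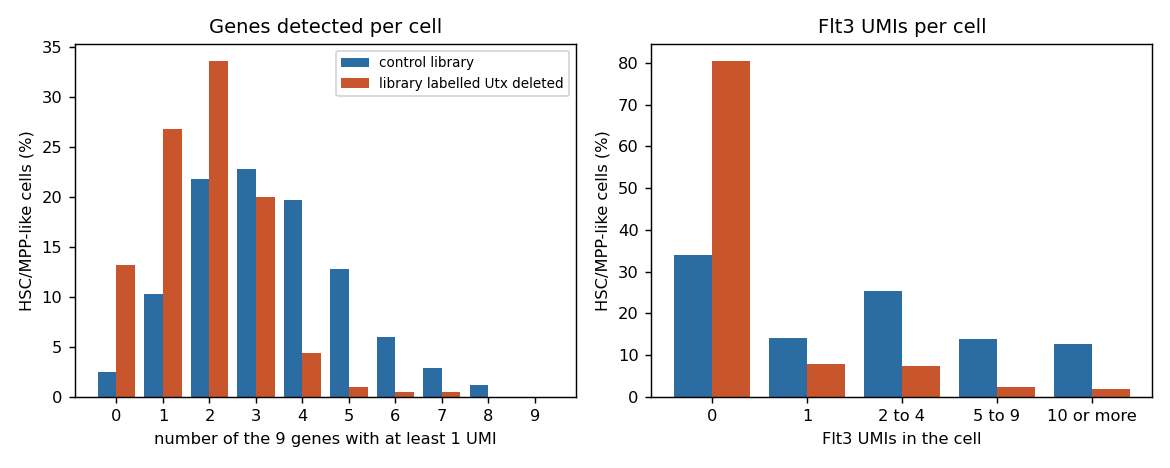
Left, the share of HSC/MPP-like cells (%) by how many of the 9 genes had at least 1 UMI in the cell; right, the share of the same cells by their Flt3 UMI count, in the control library (blue, 517 cells) and the Utx-labelled library (orange, 205 cells). The control peaks at 3 genes per cell (22.8%) and the other library at 2 (33.7%), and 34.0% of control cells and 80.5% of the others have no Flt3 UMI.

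Outside the HSC/MPP-like class, Flt3 lay mainly in monocyte-progenitor-like and dendritic-cell-like cells. In monocyte-progenitor-like cells (274 and 550 cells) it was detected in 37.2% and 9.27% and summed to 37.2 and 6.76 CPM. Dendritic-cell-like cells (37 and 89 cells), in which FLT3 signalling supports development, gave 163.2 and 116.9 CPM, with 5.32 and 6.33 UMIs per positive cell. The HSC/MPP-like class held 77.0% of all Flt3 UMIs in the control and 27.9% in the Utx-labelled library, where dendritic-cell-like cells held 44.5%. All 5 named classes with at least 20 Flt3 UMIs over both libraries were lower in the Utx-labelled library, 4 of them by at least 2-fold.

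Il7r, the other cytokine receptor gene, was sparse. In the HSC/MPP-like class it was found in 14 control cells (2.71%, 1.49 to 4.50) and 1 cell of the Utx-labelled library (0.488%, 0.0123 to 2.69), 68 and 10 UMIs in all. The difference in share, -2.22 points (-4.05 to 0.26), includes 0. Of the 14 control cells 12 carried hashtag 2 and 2 carried hashtag 1. In T-or-NK-cell-like cells, where the receptor is known to act, Il7r stood at 288.9 and 425.4 CPM (82 and 125 UMIs), and that class held 47.7% and 79.6% of all Il7r UMIs. Over all cells the level was 1.62 and 1.39 CPM, a log2 ratio of -0.23 (-0.55 to 0.09), but 2.01 within hashtag 1 and -1.48 within hashtag 2.

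Notch1 was detected in 43.9% (39.6 to 48.3) and 26.3% (20.4 to 32.9) of HSC/MPP-like cells, with 1.78 and 1.57 UMIs per positive cell. Its summed level was 29.4 and 14.4 CPM, a log2 ratio of -1.01 (-1.38 to -0.68), the called gene nearest the 2-fold threshold. The call ended in hashtag 2 (log2 -0.97), without cells holding a transcript of 12 B-lineage genes (-0.55), without cells holding T-cell or NK-cell markers by the narrower rule (-0.96) and when the class was replaced by all cells under 1% neutrophil-marker UMIs (-0.30). It also ended after thinning and without cells holding 2 or more T or NK marker UMIs, where too few UMIs remained. Its UMIs lay mostly elsewhere, 80.5% and 79.1% of them in maturing-neutrophil-like cells, where the level was 81.5 and 57.9 CPM. Of 7 named classes with at least 20 Notch1 UMIs, 4 were lower and 3 (megakaryocyte-progenitor-like, basophil-or-mast-cell-progenitor-like and dendritic-cell-like) higher, with log2 ratios from -1.01 to 0.45.

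Dntt, the enzyme gene, was found in few cells of the Utx-labelled class. It was seen in 96 control HSC/MPP-like cells (18.6%, 15.3 to 22.2) and 3 cells of the Utx-labelled library (1.46%, 0.30 to 4.22), a 12.7-fold lower share. Its counts were uneven: 38.5% of the positive control cells had a single UMI, while the highest held 84. The summed level was 81.2 CPM (76.5 to 86.1) and 11.4 CPM (8.81 to 14.4), a log2 ratio of -2.82. In the Utx-labelled class 54 of the 67 Dntt UMIs came from 1 cell. It also held all 10 Il7r UMIs of the class and 3 of the 7 Mn1 UMIs there. It had 7 of the 9 genes and carried 13 UMIs over the 12 B-lineage genes. Without that cell the log2 ratio for Dntt was -5.08. The UMIs per positive cell, 11.7 and 22.3, rest on these 3 cells in the Utx-labelled library. Maturing-neutrophil-like cells were Dntt-positive in 0.454% and 0.0748%. The HSC/MPP-like class held 93.7% and 76.1% of all Dntt UMIs.

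Setting Cd79a to 0 did not remove every B-lineage transcript from Dntt-positive cells. Of the 96 control cells, 55 held a UMI of at least 1 of the 12 B-lineage genes, among them Cd79b in 32, Blnk in 16, Rag2 in 13, Vpreb1 in 13 and Ly6d in 7. Among the 421 control cells of the class without Dntt, 201 did, with Cd79b in 162 and Blnk in 5. Stem-cell genes were common in the Dntt-positive cells as well: 73 of the 96 had Hlf and 72 had Mecom. When cells with any of the 12 genes were left out (261 and 126 cells remained), Flt3, Dntt and Ltb were still at least 2-fold lower, Itgb7 no longer reached 100 UMIs, and the log2 ratio of Notch1 went from -1.01 to -0.55.

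**Figure D2:**
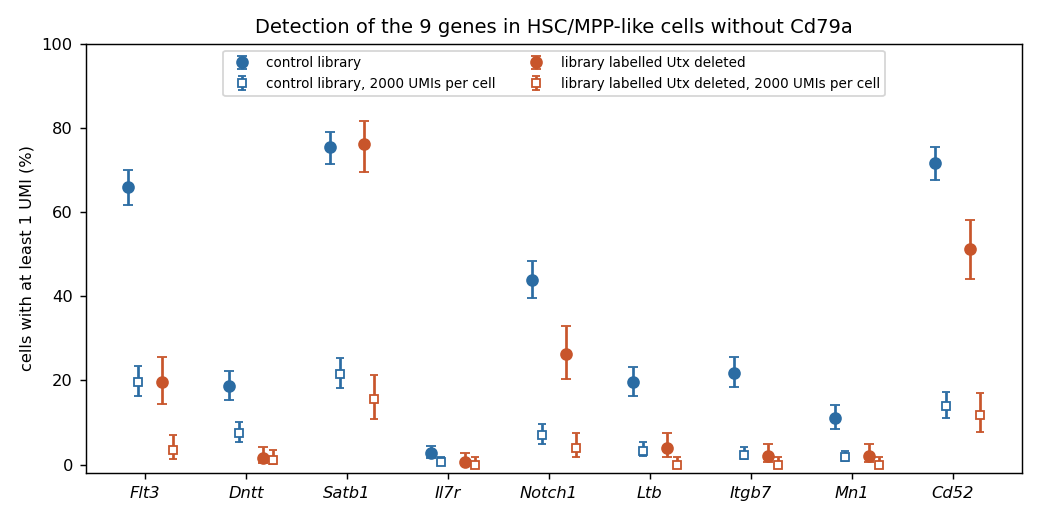
Share of HSC/MPP-like cells with at least 1 UMI of each gene (%), for 517 control cells (blue) and 205 of the Utx-labelled library (orange); filled circles are all UMIs, open squares are cells thinned to 2000 UMIs, and bars are 95% Clopper-Pearson intervals. Satb1 stands level at 75.4% and 76.1%, and the other 8 genes sit lower in the Utx-labelled library, with Il7r near the floor in both.

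The nuclear regulators behaved differently from each other. Satb1 was detected in 75.4% (71.5 to 79.1) and 76.1% (69.7 to 81.8) of HSC/MPP-like cells, a difference of 0.66 points (-6.54 to 7.26). Positive cells nevertheless held fewer UMIs, 5.15 against 3.56, so the summed level was 145.6 and 94.4 CPM, a log2 ratio of -0.62 (-0.76 to -0.49). After thinning, 21.6% and 15.6% of cells were positive. Over all cells the order was the other way, with 96.0 and 103.7 CPM. Maturing-neutrophil-like cells held 65.9% and 77.6% of Satb1 UMIs (115.3 and 140.5 CPM), and Satb1 was higher in 5 and lower in 3 of the 8 named classes; the log2 ratio of 0.11 was -0.031 after thinning, -0.090 in hashtag 2 and -0.55 among cells with under 1% of their UMIs from neutrophil markers. Mn1 was rare, with 102 and 8 UMIs in all, of which the HSC/MPP-like class held 81 and 7. It was detected there in 11.03% (8.46 to 14.1) and 1.95% (0.53 to 4.92) of cells, and in no maturing-neutrophil-like cell of either library.

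The surface and homing genes Itgb7 and Ltb were low in the Utx-labelled class. Itgb7 was found in 113 control cells (21.9%, 18.4 to 25.7) and 4 cells of the Utx-labelled library (1.95%, 0.53 to 4.92), each of those 4 with 1 UMI. The level was 11.2 CPM (9.53 to 13.1) and 0.679 CPM (0.185 to 1.74), a log2 ratio of -3.74 (-5.94 to -2.66). Itgb7 was also lower in each of the 7 named classes with at least 20 UMIs. In megakaryocyte-progenitor-like cells 108 UMIs stood against 1 (12.8 and 0.272 CPM), in monocyte-progenitor-like cells the level was 17.5 and 2.50 CPM, in dendritic-cell-like cells 188.3 and 74.8 CPM, and in T-or-NK-cell-like cells 162.1 and 37.4 CPM. The smallest of these 7 gaps was among basophil-or-mast-cell-progenitor-like cells, 65.0 and 45.8 CPM, a log2 ratio of -0.49.

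Ltb was detected in 19.5% of control HSC/MPP-like cells (16.2 to 23.2) and in 8 cells of the Utx-labelled library (3.90%, 1.70 to 7.54). In the Utx-labelled library that share is near the 2.55% of monocyte-progenitor-like cells and the 5.17% of megakaryocyte-progenitor-like cells, at median depths of 28711 and 29996 UMIs. The summed level was 13.8 and 1.87 CPM, a log2 ratio of -2.77 (-3.92 to -2.02). Maturing-neutrophil-like cells, which held 87.4% and 88.5% of Ltb UMIs, were at 50.7 and 26.6 CPM, while T-or-NK-cell-like cells, a known source of lymphotoxin, were at 468.6 and 442.5 CPM, a log2 ratio of -0.08.

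Cd52 went its own way. The share of positive HSC/MPP-like cells was 71.8% (67.7 to 75.6) and 51.2% (44.2 to 58.2), yet positive cells held 2.73 and 4.35 UMIs and the summed level was 73.4 and 77.6 CPM. This level moved with maturing-neutrophil transcripts, which are rich in Cd52 (1134 and 1424 CPM in that class). Cells with over 1% of their UMIs from neutrophil markers were 10 of 517 in the control class and 17 of 205 in the other. Of these, 6 and 7 carried both hashtags. Without the 10 and 17 cells the log2 ratio for Cd52 went from 0.08 to -1.25. The 10 neutrophil markers, all detected in both libraries, summed to 2806 and 11526 CPM over the class. The ratios of Flt3, Dntt, Notch1, Ltb and Itgb7 stayed past 2-fold when those cells were left out.

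**Figure D3:**
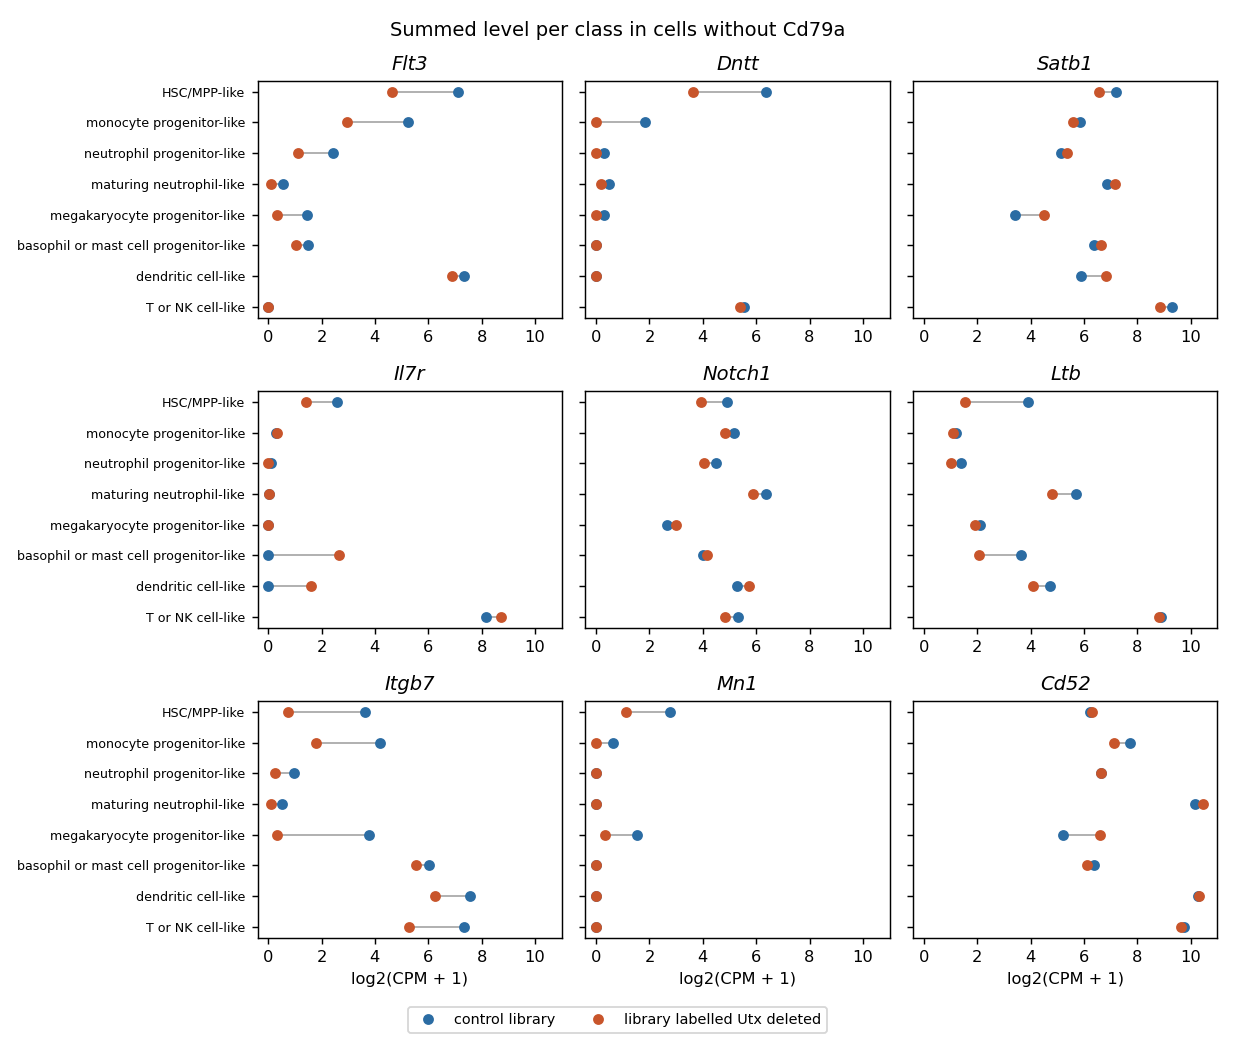
Summed level of each of the 9 genes, as log2(CPM + 1), in 8 named classes of cells without Cd79a, for the control library (blue) and the library labelled Utx deleted (orange), 1 point per library and class. Itgb7 is lower in the library labelled Utx deleted wherever it has 20 or more UMIs, while Satb1, Notch1, Ltb and Cd52 reach their levels in neutrophil-like or T-or-NK-cell-like cells as well.

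Since the class itself was smaller in the Utx-labelled library, the part set by class sizes was computed by keeping control levels and taking the other library's class shares. Flt3 would then have moved over all cells from 23.3 to 16.45 CPM, against 4.52 measured, and Dntt from 11.3 to 4.99, against 0.777. For Itgb7 and Ltb the same calculation gave 8.17 and 32.0 CPM, above or near the control levels of 7.14 and 31.8, against 2.25 and 17.2 measured. For Mn1 class shares alone gave 0.444 CPM, past 2-fold below the control level of 0.963, against 0.0706 measured, and for Il7r 1.07 CPM, below the measured 1.39. For Satb1, Notch1 and Cd52 they gave 91.3, 57.99 and 724.9 CPM, against 103.7, 41.9 and 883.2 measured.

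The makeup of the HSC/MPP-like class also differed between the libraries. At a finer resolution it split mainly into cluster 22, led by Mecom and Hlf, and cluster 15, which stayed unnamed and was led by Prg2, Slc24a3 and Cpa3. Cluster 22 scored highest for HSC/MPP (3.48), but cluster 15 scored higher for neutrophil progenitor (1.71) than for HSC/MPP (1.16). Values over the class are thus not values of stem-cell-like cells alone. Both also took in cells from outside the class. They held 48.9% and 50.7% of the control class and 23.4% and 76.1% of the other. Of the 11 stem-cell markers, 8 were lower and 3 (Gata2, Mycn and Angpt1) higher over the class in the Utx-labelled library. Hlf stood at 188.2 and 135.6 CPM, Mecom at 364.6 and 351.3, Gata2 at 67.8 and 96.9 and Procr at 6.67 and 1.87. Ly6a, which encodes Sca1, stood at 16.2 and 3.22 CPM and the Sca1 tag at 119.6 and 47.3 per 10000 tag UMIs. Other tags of the class went both ways on that scale. CD201 (10 and 4.87) and CD48 (2662 and 2145) were also lower. CD117 (633.7 and 853.5), CD150 (20.8 and 35.1), CD34 (155.3 and 239.1) and CD41 (54.9 and 97.7) were higher. So were Gr1 (108.7 and 292.6), CD11b (51.2 and 71.75), CD16/32 (453.2 and 624.7) and B220 (58.2 and 69.1). The monocyte and dendritic regulator Irf8 was at 80.5 and 25.1 CPM, the eosinophil granule gene Prg2 at 91.3 and 335.9 CPM and the granule enzyme gene Mpo at 1598 and 2779 CPM. The part of this makeup in the class values was not tested, but each cluster could be read alone.

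In the Mecom and Hlf cluster (256 and 49 cells), Flt3 was detected in 81.2% (75.9 to 85.8) and 34.7% (21.7 to 49.6) of cells, at 210.5 and 55.6 CPM. Satb1 was detected in 74.2% and 32.7% at 201.9 and 56.3 CPM, and Ltb had 174 UMIs against 0, at least 13.02-fold lower against a floor of 3 UMIs over the library's cluster. Dntt was found in 72 and 1 cells, and Il7r in 14 and 1. In the Prg2 cluster (303 and 220 cells), Flt3 was at 68.9 and 10.4 CPM (47.2% and 13.6% of cells) and Itgb7 at 7.70 and 0.692 CPM. There Satb1 was at 94.2 and 90.1 CPM, a log2 ratio of -0.06 (-0.21 to 0.08), and Ltb at 2.06 and 1.66 CPM. Itgb7 in the Mecom and Hlf cluster was at 17.3 and 5.05 CPM, with 7 UMIs in 1 cell in the Utx-labelled library. That cell lay outside the HSC/MPP-like class, where no cell of this library held more than 1 Itgb7 UMI. Flt3 and Itgb7 were thus lower in both clusters, and the gaps in Satb1 and Ltb lay in the Mecom and Hlf cluster; the difference between the clusters was not tested. Il7r had no UMI in the Prg2 cluster of either library, which, taking 3 cells as the most a count of 0 allows, limits cells with a UMI to 0.990% and 1.36%, not cells that express the gene.

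Each hashtag gave similar detection for Flt3 in the HSC/MPP-like class. The shares were 66.8% and 17.7% in hashtag 1 (253 and 79 cells) and 65.6% and 19.3% in hashtag 2 (256 and 119 cells). Itgb7 was detected in 21.7% and 2.53%, and in 22.3% and 0.840%. Dntt was detected in 17.4% and 1.27%, and in 19.9% and 1.68%, but its level was 46.3 and 0.899 CPM in hashtag 1 (log2 -5.10) and 120.8 and 18.9 CPM in hashtag 2 (log2 -2.66), which holds the cell with 54 UMIs. For Ltb the log2 ratios were -1.93 and -3.49 in the class, from 6 and 4 UMIs in the Utx-labelled library, and -0.55 and -1.19 over all cells.

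The genes were detected together more often in the control class. At least 2 of the 9 were found in 87.2% (84.0 to 90.0) of control HSC/MPP-like cells and 60.0% (53.0 to 66.8) of the others, at least 3 in 65.4% and 26.3%, and 5 or more in 22.8% (19.3 to 26.7) and 1.95% (0.53 to 4.92). The mean was 3.31 and 1.83 genes per cell, and the highest 8 and 7. Thinned to 2000 UMIs, 18.7% (15.4 to 22.3) and 4.88% (2.36 to 8.79) of cells held at least 2. Over all cells the shares with at least 2 were closer, 82.9% and 79.9%. A lower share was not particular to this class: it was 93.4% and 72.9% in monocyte-progenitor-like cells and 66.5% and 52.7% in neutrophil-progenitor-like cells. Maturing-neutrophil-like cells had at least 2 in 88.4% and 86.5%, with Cd52 in 98.6% and 99.2% and Satb1 in 64.2% and 72.4% of them. A count of 2 genes is thus no reading of lymphoid priming by itself. In those cells 5 or more were found in 0.316% and 0.0187%.

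Within the class, control cells with Dntt, Il7r or Mn1 nearly all had Flt3 as well. There 93 of 96 Dntt-positive cells had Flt3 (96.9%, 91.1 to 99.3), whereas 27.3% of the 341 Flt3-positive cells had Dntt; among cells without Flt3, 1.70% did. All 14 Il7r-positive control cells had Flt3 and 13 of them had Dntt. These cells were not free of B-lineage transcripts, since 13 of the 14 held a UMI of the 12 genes, with Blnk in 9, Rag2 in 7 and Ly6d in 7. Mn1-positive cells had Flt3 in 93.0% of cases. Over all control cells without Cd79a, Flt3 was found in 72.3% of Dntt-positive, 42.9% of Il7r-positive and 75% of Mn1-positive cells. In the HSC/MPP-like class of the Utx-labelled library, each of the 3 Dntt-positive and 4 Mn1-positive cells also had Flt3. Flt3-positive and Flt3-negative control cells of the class had alike median depths, 25982 and 26046 UMIs.

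Within the HSC/MPP-like class most pairs exceeded the product of their single shares. In the control class 28 of the 32 pairs whose product came to at least 5 cells did so, with a median ratio of observed to product of 1.15. The highest among these was Dntt with Mn1 (28 cells against 10.6, a ratio of 2.65), followed by Itgb7 with Mn1 (25 against 12.5) and Dntt with Itgb7 (40 against 20.98). The 4 pairs below the product all included Ltb, with Notch1 (37 cells against 44.4), Satb1 (66 against 76.2), Itgb7 and Cd52. In the Utx-labelled library 7 pairs could be read and all 7 exceeded the product, with ratios from 1.02 to 1.31. Cells that differ in depth raise such ratios for every pair, and this was not removed except by thinning, where all 9 readable control pairs exceeded it. Over all cells without Cd79a the pattern was mixed, with 19 pairs above and 11 below the product in the control (10 and 9 after thinning) and 9 above and 11 below in the Utx-labelled library (6 and 4 after thinning).

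Among Flt3-positive cells alone (341 and 40), detection was 27.3% and 7.5% for Dntt, 27.3% and 2.5% for Itgb7 and 23.5% for Ltb in the control, against 2 of 40 cells. The other 5 stood at 15.5% and 10.0% for Mn1, 49.6% and 32.5% for Notch1, 81.8% and 77.5% for Satb1, 73.0% and 65.0% for Cd52 and 4.11% and 2.5% for Il7r. With 40 cells in the Utx-labelled library the intervals are wide, 1.57 to 20.4 for Dntt.

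**Figure D4:**
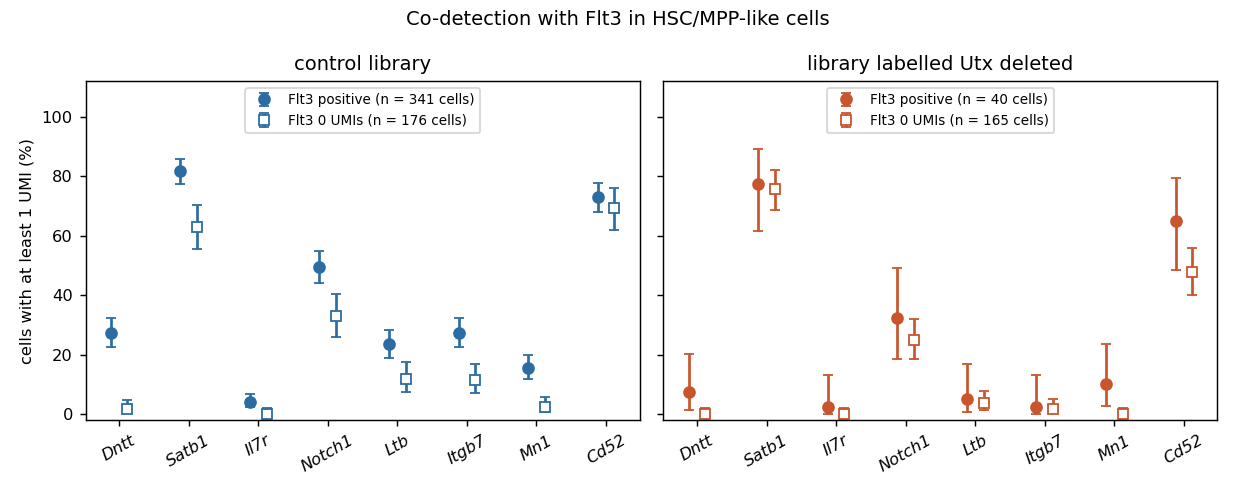
Share of HSC/MPP-like cells with at least 1 UMI of the other 8 genes (%), in cells with Flt3 (filled circles) and without (open squares), in the control library (left, 341 and 176 cells) and the library labelled Utx deleted (right, 40 and 165 cells), with 95% Clopper-Pearson intervals. In the control Dntt is found in 27.3% of Flt3-positive cells and 1.70% of the rest, and Satb1 in 81.8% and 63.1%.

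The CD135 tag was lower together with its transcript in the HSC/MPP-like class. Over HSC/MPP-like cells it averaged 8.11 per 10000 tag UMIs of a cell (SD over cells 11.1, n = 516 cells) in the control and 1.48 (SD 4.10, n = 205) in the Utx-labelled library, 5.47-fold lower as a mean over cells. With tag UMIs pooled over the cells of a library the class was at 7.53 and 2.62 per 10000, a log2 ratio of -1.52 in place of -2.45. The tag was thin, with medians of 2 and 0 UMIs per cell. Maturing-neutrophil-like cells, which serve as background, averaged 2.62 and 1.15 (pooled 2.38 and 1.11), so the background itself was 2.27-fold lower in the mean over cells. With hashtags left out of the total, HSC/MPP-like cells averaged 21.9 and 5.57 and that background 4.21 and 1.72; as centred log-ratios the class was above it in the control (-2.32 and -2.61) and below it in the Utx-labelled library (-2.77 and -2.52). Cells above the 99th percentile of those cells made up 16.1% (13.02 to 19.5) and 1.95% (0.53 to 4.92) of the HSC/MPP-like class. Control cells with Flt3 transcripts averaged 10.8 and those without 2.86; in the other library the averages were 3.67 and 0.951. Pooled, cells with Flt3 transcripts were at 10.1 and 8.20 in the control and the Utx-labelled library, and cells without at 2.65 and 0.911. These pooled values were not read within single hashtags. Across cells of the class the Spearman correlation of tag and transcript was 0.56 in the control and 0.17 in the other library, as a description, since both counts rise with the depth of a cell. Dendritic-cell-like cells averaged 18.1 and 6.08. Over all cells the averages were 3.30 and 1.23, but as a difference of centred log-ratios the all-cell value turned, from -1.43 on the log2 scale to 0.028; in the HSC/MPP-like class it was -0.64.

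The level of CD127 in the HSC/MPP-like class relative to background depended on the scale. Per 10000 tag UMIs it averaged 14.9 and 8.77 there and 14.9 and 8.75 in maturing-neutrophil-like cells, differences of 0.080 and 0.022, and both classes were 1.70-fold lower in the Utx-labelled library. Pooled over cells the class was at 12.3 and 11.01 and that background at 13.6 and 8.86, so the class was below the background in the control and above it in the other library, and its own log2 ratio was -0.16 in place of -0.77. Pooled within a hashtag, the class was at 14.5 and 10.1 in hashtag 1 and at 10.8 and 5.65 in hashtag 2. The 11.01 of the Utx-labelled library lies above both its hashtags, so the few cells outside the single hashtags raise it. With hashtags left out of the tag total, HSC/MPP-like cells averaged 36.8 and 22.2 and maturing-neutrophil-like cells 23.8 and 13.2. As centred log-ratios the order turned, with -1.75 and -2.05 against -1.51 and -1.71. The 14 control cells with Il7r transcripts averaged 27.0 (SD 21.4) and the 502 without averaged 14.6 (SD 23.0). T-or-NK-cell-like cells averaged 24.8 and 20.4, above the background of their library by 1.67 and 2.33 times.

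**Figure D5:**
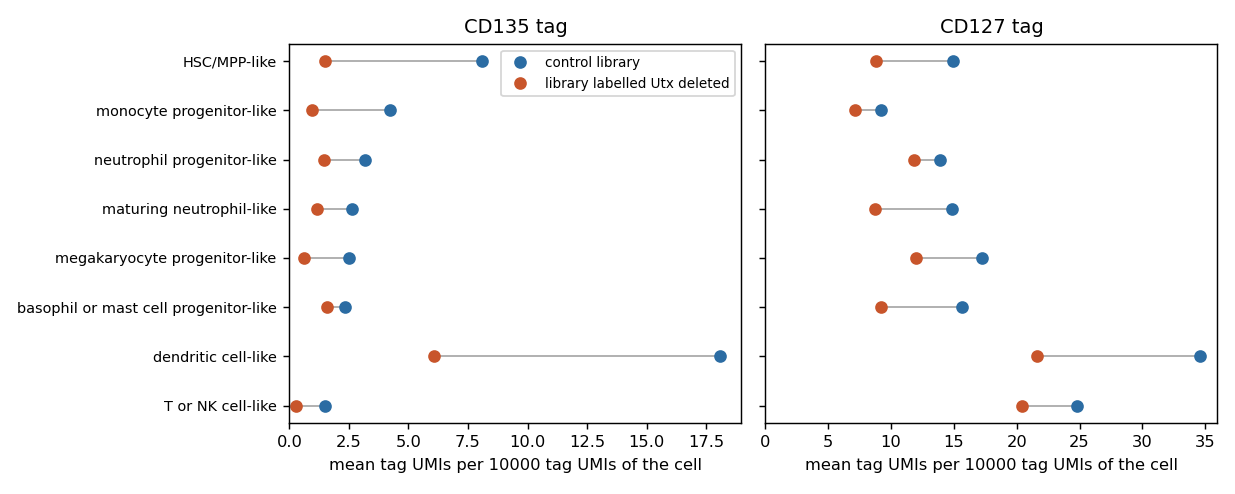
Mean CD135 (left) and CD127 (right) tag UMIs per 10000 tag UMIs of a cell in 8 named classes, for the control library (blue) and the library labelled Utx deleted (orange), 1 point per library and class and no error bars because cells are not replicates. CD135 in HSC/MPP-like cells goes from 8.11 to 1.48 while CD127 is at 14.9 and 8.77 there and at 14.9 and 8.75 in maturing-neutrophil-like cells.

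Other genes of the same pathways, from 5 lists, were read by the same threshold, which 5.12% of all genes tested passed downward over all cells and 2.68% in the HSC/MPP-like class. Of 5 B-lineage genes with at least 100 UMIs over all cells, 3 were at least 2-fold lower: Ebf1, a B-lineage transcription factor (4.55 and 0.838 CPM), Blnk, an adaptor of B-cell receptor signalling (0.915 and 0.185 CPM), and Ly6d, a marker of B-lineage-biased lymphoid progenitors (3.11 and 0.318 CPM). In the HSC/MPP-like class 1 of 2 tested passed, Ly6d, while Cd79b, a B-cell receptor component, had a log2 ratio of -0.23. Ebf1 had too few UMIs there to be tested, 16 and 10 (log2 0.60, -0.75 to 1.78). Ly6d had 279 UMIs against 0, at least 39.7-fold lower against a floor of 3 UMIs over the class, but those 279 came from only 7 Dntt-positive and 2 other control cells. UMIs of so few cells are not independent, so that bound says little of the class as a whole. The same 279 were most of the 329 control UMIs of Ly6d over all cells, against 36 in the Utx-labelled library. The all-cell call of Ly6d therefore rests largely on these few cells too. Among FLT3 and IL-7 receptor partners none of 8 passed over all cells and 1 of 6 in the HSC/MPP-like class, Il2rg, which encodes the common cytokine receptor gamma chain that pairs with IL-7 receptor alpha (32.1 and 14.8 CPM, log2 -1.11). None of 7 Notch pathway genes passed over all cells and none of 4 in the class, where Notch2 had a log2 ratio of -0.94.

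The calls among lymphoid transcription factors stand beside 5.12% of all genes over all cells and 2.68% in the class. Of 18 tested over all cells, Id3, an inhibitor of E proteins (1.18 and 0.115 CPM), and Gata3, a T-cell and innate lymphoid factor (1.75 and 0.618 CPM), were lower, and of 15 in the HSC/MPP-like class Gata3 alone was (9.28 and 2.21 CPM, log2 -1.98). Their median log2 ratio in the class was -0.09, beside -0.03 over all genes, and 8 of the 15 were below 0. Id2 fell just short of 2-fold higher there, with 58 and 49 UMIs (log2 0.99, 0.41 to 1.56). None of 8 homing and lymphotoxin partners passed over all cells and none of 5 in the class. No gene of the 5 lists with at least 100 UMIs was 2-fold higher in either comparison. Below that count, intervals of the log2 ratio that left out 0 lay on both sides. In the class they lay above 0 for Socs2, with 42 and 47 UMIs (3.04 and 7.98 CPM), Nrarp, 17 and 23 (1.23 and 3.90 CPM), and Ccr9, 11 and 14 (0.797 and 2.38 CPM). They lay below 0 there for Blnk (46 and 0 UMIs), Vpreb1 (54 and 8) and Flt3l (48 and 9). Over all cells the interval of Lta, with 2 and 11 UMIs, lay above 0. Those of Rag1 (22 and 5), Rag2 (59 and 19), Igll1 (65 and 30), Pax5 (35 and 19), Vpreb3 (42 and 27), Notch3 (42 and 11) and Ccr7 (13 and 1) lay below. All of these were chosen after their values were seen.

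Across the 17 control clusters with at least 30 cells, the genes most like Flt3 in log2(CPM + 10) were Myof (Pearson r = 0.96), Plxnb2 (0.92), Rnf150 (0.91), Rgs7bp (0.90) and Clec10a (0.90). Dendritic-cell-like cluster 18 had the highest level of Flt3 and of 4 of these 5, and the HSC/MPP-like cluster of Rgs7bp. These correlations are descriptions over clusters of 1 library. The other members followed Flt3 less closely over the same clusters, with r of 0.58 for Mn1, 0.48 for Itgb7 and 0.40 for Dntt. For Ltb, Notch1, Cd52, Satb1 and Il7r it was below 0, from -0.26 to -0.07. Over the 13 such clusters of the Utx-labelled library, r was 0.90 for Myof, 0.91 for Plxnb2, 0.86 for Rnf150, 0.93 for Clec10a and 0.25 for Rgs7bp. There it was 0.52 for Itgb7, 0.32 for Mn1 and 0.018 for Dntt, and from -0.16 to 0.065 for the remaining members.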

How the data were processed

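Both libraries are 10x Genomics 3-prime libraries with feature barcodes, per the labels' protocols. The deposited matrices hold raw UMI counts per gene or antibody tag and cell barcode, made by the authors with Cell Ranger 7.1.0 on mm10, per the file headers and the submitters' processing notes; the annotation and the cell-calling rule are not given in the sources used here. Counts were analysed with Python 3.11.15, scanpy 1.11.5 and scipy 1.17.1. Cells with at least 500 genes and under 10% mitochondrial UMIs were kept. Scrublet's own threshold marked 1 and 0 doublets and had not worked, so the top 6% of scores (467 and 463 cells) were left out. Leiden clusters (2000 variable genes without the genes studied, 30 components, 15 neighbours, resolution 1) were named from marker lists. UMIs were summed per library and class, given as CPM and compared as log2 ratios with 1 UMI added. Genes with at least 100 UMIs were compared with a 2-fold threshold. For tag values, 1 cell of each library without tag UMIs was left out. Thinning to 2000 UMIs left out 165 and 75 shallower cells. The ratio step was tested on simulated data. The members, lists and rules were chosen with earlier results of these data known. Genes named are the 9 members, list genes past 2-fold and the 5 genes most like Flt3 across clusters. Notch2, Id2, class markers and list genes below 100 UMIs whose interval left out 0 were also named, chosen after their values were seen.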

Additional observations from a re-analysis of the deposited data

How the results depend on the processing

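Over all cells the count of genes at least 2-fold lower was 3 to 5 under 14 alternatives, against 4. Over 18 alternatives in the HSC/MPP-like class it ranged from 1 to 7. The rises there were to 7 with a minimum of 20 UMIs, and to 6 at resolution 2 and with a 1.5-fold threshold. It was also 6 without cells rich in neutrophil transcripts, where Cd52 was called as well. In the HSC/MPP-like class it was 5 and became 3 without cells holding any of 12 B-lineage genes, 3 in hashtag 1, 3 in hashtag 2, 2 without cells holding 2 or more T or NK marker UMIs (94 and 74 cells remained, and Nkg7, one of those markers, is also a leading gene of neutrophil-progenitor-like clusters) and 1 after thinning; in these settings 6, 5, 6, 4 and 3 genes still reached 100 UMIs. The difference in the share of cells with at least 2 genes was -2.96 points over all cells and became -4.35 after thinning, -11.6 in cells with under 1% neutrophil-marker UMIs, -5.59 in hashtag 2, -1.82 without cells holding any of the 12 B-lineage genes, -1.94 without other lymphoid and dendritic cells and -1.87 in hashtag 1. In the HSC/MPP-like class it was -27.2 and became -13.8 after thinning, -51.9 at resolution 2 and -11.6 when the class was replaced by cells with under 1% neutrophil-marker UMIs. The all-cell CD135 log2 ratio of -1.43 became 0.028 as a difference of centred log-ratios (HSC/MPP-like -2.45 became -0.64), and that of CD127, -0.76, became -0.30 with centred log-ratios and -0.55 in hashtag 2. With tag UMIs pooled over cells, CD135 became -1.24 over all cells and -1.52 in the class, and CD127 -0.52 and -0.16 (from -0.77). The pooled class values of the Utx-labelled library were raised by the few cells outside the single hashtags. Over all cells the Satb1 log2 ratio of 0.11 became -0.031 after thinning, -0.55 under 1% neutrophil-marker UMIs and -0.090 in hashtag 2, its detection difference -0.97 points and the Cd52 log2 ratio -0.23 under 1% neutrophil-marker UMIs. The causes were not tested. The log2 ratios of the summed levels of Flt3, Dntt, Notch1, Ltb, Itgb7 and Mn1 were below 0 under all 12 alternatives over all cells and all 16 in the class. The alternatives without cells rich in neutrophil transcripts, without barcodes of both hashtags, with a narrower T-cell rule (which left 4 of 7, Notch1 no longer among them), with Hlf and Mecom, with single clusters, without the top cell and with pooled tag UMIs were chosen after seeing the data. No paired analysis was possible because each group has 1 library. Low counts limit what can be read of Il7r and Mn1, with 10 and 7 UMIs in the Utx-labelled class.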

Other observations

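Clusters that stayed unnamed because of low UMI counts held 87 control cells and 39 cells of the Utx-labelled library without Cd79a. Their CD127 tag averaged 79.5 per 10000 tag UMIs (SD over cells 128.7) in the control and 33.0 (SD 75.7) in the Utx-labelled library, but the medians were 27.9 and 8.65 and the pooled values 28.2 and 8.57, well below those means. Their CD135 tag averaged 10.4 and 0.795, with medians of 0 in both libraries and pooled values of 2.82 and 0.868. In the B-cell-progenitor-like cluster, 5 control cells had no Cd79a UMI and averaged 154.2 for CD127, and no cell of the Utx-labelled library met that condition.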
